A study of Mus musculus with 2 samples.

Results

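The beta subunits of the sodium-potassium ATPase are described here from ribosome footprints of neonatal mouse brain. The members were chosen by gene symbol, as Atp1b1, Atp1b2 and Atp1b3, which are 3 of the 45578 genes in the deposited table. Their 12 annotated transcripts were all counted in both libraries, and all 3 genes passed the minimum mean count of 10 that 16427 genes reached.

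The sodium-potassium ATPase is the pump that moves sodium out of the cell and potassium in at the cost of ATP, and the gradients it keeps carry the action potential and the uptake of neurotransmitters. Each pump joins a catalytic alpha subunit to a smaller beta subunit, a glycoprotein with a short cytoplasmic tail, one membrane segment and a large extracellular domain. The beta subunit is needed for the alpha subunit to fold, leave the endoplasmic reticulum and reach the plasma membrane, and it modulates the affinity of the pump for potassium. In the brain, beta1 is known as the widespread neuronal form and beta2 as a glial form that was also named adhesion molecule on glia. Beta3 is found in many tissues.

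Footprints are the short mRNA fragments that ribosomes protect from nuclease. They were counted in brains taken from 2 control mice on postnatal day 5, of genotype Smn+/-; SMN2tg/0 on the FVB strain, so that both were heterozygous for a disrupted Smn and carried human SMN2 as a transgene. The mice were biological replicates 1 and 2 of 1 group, and no other genotype, age or treatment was measured, so that levels are described and compared between genes and between the 2 animals. The fragments came from polysomal fractions pooled before digestion with RNase I and were 25 to 35 nucleotides long. In whole brain, fewer cells of a type and fewer ribosomes per cell on a transcript cannot be told apart.

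The libraries held 1866831 footprints in replicate 1 and 5261878 in replicate 2, so that values of replicate 2 carry less counting error. Every marker of neurons (7 of 7), astrocytes (7 of 7), oligodendrocytes (7 of 7), choroid plexus (5 of 5), endothelium (4 of 4), microglia (4 of 4) and red cells (4 of 4) had footprints in both libraries, and none was at 0.

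Atp1b1, which encodes beta1 (ENSMUSG00000026576; chromosome 1, 164437099 to 164458355 in GRCm38.p6), carried the most footprints of the family. It had 1592 footprints in replicate 1 and 3319 in replicate 2. Scaled to counts per 1000000 footprints of the library (CPM), this was 853 in the first animal, with a 95% counting interval (Clopper-Pearson) of 811 to 896. It was 631 in the other (609 to 653), which gives 742 ± 157 (SD, n = 2). The animal of replicate 1 was the higher, and the counting intervals did not overlap.

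Atp1b2, which encodes beta2 (ENSMUSG00000041329; chromosome 11, 69599728 to 69605978), was counted 754 times in replicate 1 and 1863 times in replicate 2. The level came to 404 CPM in the first animal (376 to 434) and to 354 in the other (338 to 371), or 379 ± 35.2 (SD, n = 2). Replicate 1 was again the higher, with intervals that did not overlap.

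Atp1b3, which encodes beta3 (ENSMUSG00000032412; chromosome 9, 96332655 to 96364431), was the least counted, with 124 and 411 footprints. The level came to 66.4 CPM in replicate 1 (55.2 to 79.2) and to 78.1 in the other animal (70.7 to 86.04), or 72.3 ± 8.26 (SD, n = 2). Here replicate 2 was the higher, and the intervals overlapped.

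The 3 proteins are of nearly the same size. The leading coding transcript, meaning the protein-coding transcript with the highest mean count, has a coding sequence of 915 nucleotides in Atp1b1, 873 in Atp1b2 and 837 in Atp1b3. These encode 304, 290 and 278 residues. Genes were compared by footprint density, defined as CPM per kilobase of this coding sequence.

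Per coding length, Atp1b1 stood above Atp1b2 and Atp1b2 above Atp1b3 in each animal. The density of Atp1b1 was 932 in replicate 1 and 689 in replicate 2, averaging 811 ± 172 (SD, n = 2). The density of Atp1b2 was 463 and 406, with a mean of 434 ± 40.4, and that of Atp1b3 was 79.4 and 93.3, with a mean of 86.3 ± 9.87. The lowest value of each gene in this order lay above the highest value of the next, so neighbours in the order did not overlap between the replicates. With 2 animals no exact test across samples can reach a threshold of 0.05, and the order is given as a description.

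**Figure D1:**
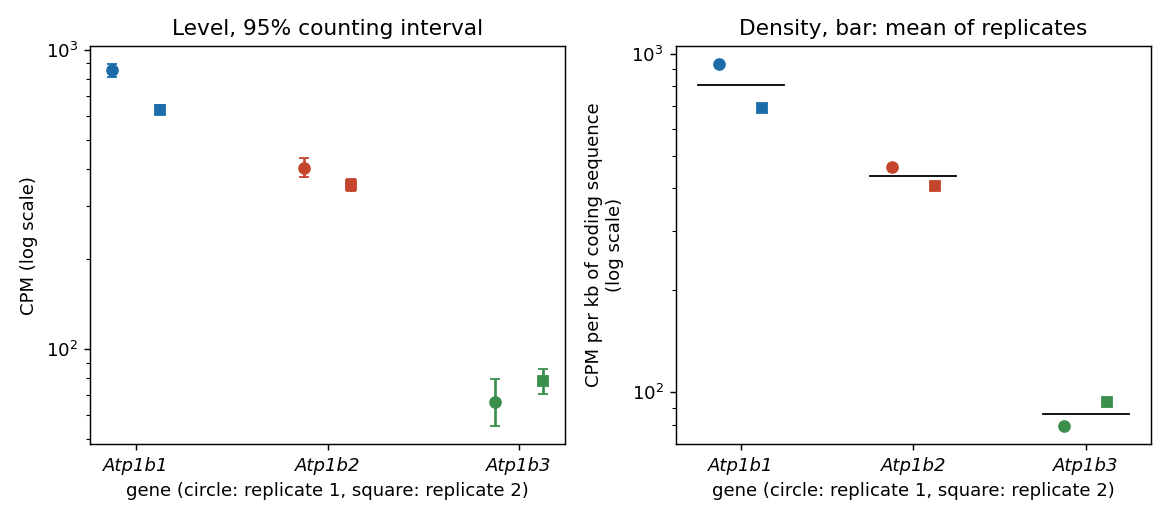
Footprint levels of the beta subunit genes in each library, with CPM on the left (log scale, bars are Clopper-Pearson 95% intervals for counting error) and density per kilobase of coding sequence on the right (log scale, horizontal bars are means of the 2 replicates). Circles are replicate 1 and squares replicate 2. Atp1b1 lies at 932 and 689 on the right, Atp1b2 at 463 and 406, and Atp1b3 at 79.4 and 93.3.

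All 3 genes were denser than the median of 23.9 over the 13317 genes with a coding length and a mean count of at least 10. With all transcripts counted, Atp1b1 ranked 80th in density, at percentile 99.4, Atp1b2 ranked 270th, at percentile 98.0, and Atp1b3 ranked 2441st, at percentile 81.7. Atp1b1 and Atp1b2 were thus in the densest decile of genes and Atp1b3 in the decile below it.

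The balance among the beta subunits was read from ratios within a library, which do not depend on library scaling. Atp1b1 density was 2.01 times that of Atp1b2 in replicate 1 (exact binomial 95% interval 1.85 to 2.20) and 1.70 times in replicate 2 (1.61 to 1.80). It was 11.7 times that of Atp1b3 in replicate 1 (9.78 to 14.2) and 7.39 times in replicate 2 (6.67 to 8.20). The lead of Atp1b1 was smaller in replicate 2 for both pairs.

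Atp1b2 density was 5.83 times that of Atp1b3 in replicate 1 (4.82 to 7.11) and 4.35 times in replicate 2 (3.90 to 4.85). From replicate 1 to replicate 2 the log2 ratio changed by -0.25 for Atp1b1 over Atp1b2 (exact conditional 95% interval -0.40 to -0.09), by -0.67 for Atp1b1 over Atp1b3 (-0.98 to -0.36) and by -0.42 for Atp1b2 over Atp1b3 (-0.75 to -0.10). None of the 3 intervals, which cover counting error alone, held 0. Ratios within a library still hold the trend with density described below. The median log2 ratio was -0.26 in the density decile of Atp1b1 and Atp1b2 and -0.10 in that of Atp1b3. The part of that trend in these changes was not tested. The mean ratios were 1.86 ± 0.223 for Atp1b1 over Atp1b2, 9.57 ± 3.08 for Atp1b1 over Atp1b3 and 5.09 ± 1.05 for Atp1b2 over Atp1b3 (SD, n = 2).

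As shares of the summed beta density, Atp1b1 took 63.2% in replicate 1 and 58.02% in replicate 2. Atp1b2 took 31.4% and 34.1%, and Atp1b3 took 5.38% and 7.85%. In both animals most of the beta subunit output per coding length was that of beta1, with most of the remainder on beta2. The summed density was 1474 in replicate 1 and 1188 in replicate 2.

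The ratio of Atp1b2 to the other genes depends on which of its transcripts are counted. Only 42.2% ± 0.952 (SD, n = 2) of the Atp1b2 footprints lay on its 2 protein-coding transcripts, against 73.2% ± 0.736 for Atp1b1 and 77.6% ± 6.55 for Atp1b3. The median over the 13317 genes was 91.1%. With protein-coding transcripts alone, Atp1b1 density was 3.22 times that of Atp1b2, and Atp1b2 density was 2.75 times that of Atp1b3. With the highest transcript of each gene alone, these ratios were 2.81 and 2.39. For Atp1b2 that was Atp1b2-003, which has no coding sequence, and its counts were set over the 873 coding nucleotides of Atp1b2-001. The order of the genes did not change.

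The footprints of Atp1b2 were spread over 5 annotated transcripts. Atp1b2-001, a protein-coding transcript of 2842 nucleotides, had 287 footprints in replicate 1 and 652 in replicate 2. Atp1b2-003, a longer transcript of 3751 nucleotides annotated as processed and without a coding sequence, had 286 and 656. The 2 transcripts therefore held nearly equal counts in each library, at 38.06% and 37.9% of the gene in replicate 1 and 35.00% and 35.2% in replicate 2.

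The shorter Atp1b2 transcripts held less. Atp1b2-005, with 711 nucleotides and no coding sequence, had 103 and 309 footprints, and Atp1b2-004, of the same class, had 42 and 125. Atp1b2-002, a coding transcript with 411 nucleotides of coding sequence, had 36 and 121. In CPM per kilobase of transcript, the 5 ranged from 21.3 ± 2.64 for Atp1b2-002 to 80.1 ± 3.53 for Atp1b2-005 (SD, n = 2).

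The footprints of Atp1b1 were spread more evenly per length. Atp1b1-001, which holds the full coding sequence, had 912 footprints in replicate 1 and 1772 in replicate 2. Atp1b1-003, a coding transcript with 397 nucleotides of coding sequence, had 262 and 641. Both are coding, and together with the retained-intron transcript Atp1b1-002, at 245 and 483, and the processed transcript Atp1b1-004, at 173 and 423, they made up the gene. In CPM per kilobase of transcript, the 4 lay between 160 ± 41.6 for Atp1b1-001 and 209 ± 20.9 for Atp1b1-003 (SD, n = 2). The spread between the replicates of Atp1b1-001 was of the size of the differences among the transcripts.

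Atp1b3 had 3 transcripts, of which 1 is coding. Atp1b3-001 had 102 footprints in replicate 1 and 300 in replicate 2. The retained-intron transcript Atp1b3-003 had 15 and 73, and the processed transcript Atp1b3-004 had 7 and 38. The coding transcript held most of the gene in each animal, and its density of 28.0 ± 0.84 CPM per kilobase of transcript (SD, n = 2) stood beside 20.2 ± 7.63 for Atp1b3-003 and 19.7 ± 8.83 for Atp1b3-004.

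Transcripts of 1 gene share exons, and how a shared fragment was assigned is not given in the sources used here. In 40 pairs of coding transcripts of 1 gene with identical lengths, the squared difference of the paired counts divided by their sum averaged 1.01. A value near 1 is that of fragments each placed at random on 1 transcript of the pair, or of independent counts with equal means. A value of 0 is that of fragments counted on both. Footprints were therefore summed over the transcripts of a gene, and a count on a non-coding transcript can hold fragments of coding exons. Shares and densities of single transcripts can reflect where shared fragments were placed, and are not given as levels of those transcripts.

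**Figure D2:**
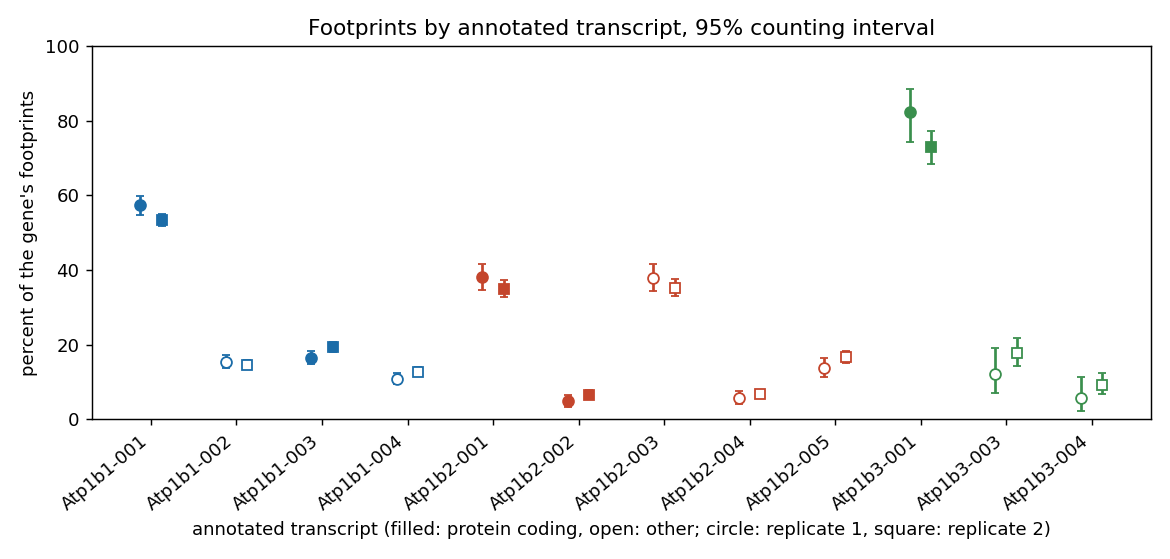
Share of each gene's footprints on each annotated transcript, in percent, with Clopper-Pearson 95% intervals for counting error. Filled symbols are protein-coding transcripts and open symbols other classes; circles are replicate 1 and squares replicate 2. Atp1b2-001 and Atp1b2-003 lie side by side near 38.06% and 37.9% in replicate 1, while Atp1b3-001 holds 82.3% and 73.0% of its gene.

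No difference between the animals in the spread over transcripts was called. The transcript with the highest mean count held 57.3% of Atp1b1 in replicate 1 and 53.4% in replicate 2, where it was Atp1b1-001. It held 37.9% and 35.2% of Atp1b2, as Atp1b2-003, and 82.3% and 73.0% of Atp1b3, as Atp1b3-001. All 3 shares were lower in replicate 2, but 0 of 3 genes were called by Fisher's exact test with Benjamini-Hochberg adjustment over 10129 genes (adjusted p = 0.624, 1 and 1), where 0.178% of genes were called. The unadjusted p of the two-sided exact test was 0.011 for Atp1b1, 0.192 for Atp1b2 and 0.0435 for Atp1b3, so 2 of the 3 lay under 0.05, as did 485 of the 10129 genes.

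Atp1b1 and Atp1b2 were lower in replicate 2 than in replicate 1, and for Atp1b3 no difference was detected. Each gene's pair of counts was set against the ratio of library sizes, scaled by TMM (trimmed mean of M values), in an exact binomial test (two-sided) that compares 2 libraries and takes in counting error alone. Of the 3 genes, 2 were called at an adjusted p under 0.05, both lower in replicate 2, where 17.4% of the 16427 tested genes were called, 11.5% lower and 5.95% higher. TMM moved every log2 ratio by -0.13 from the ratio of library totals.

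The log2 ratio of replicate 2 over replicate 1 was -0.56 for Atp1b1 (95% interval -0.65 to -0.47), a level 1.48 times higher in replicate 1, and the exact binomial test gave an adjusted p of 3.32e-33. For Atp1b2 it was -0.32 (-0.44 to -0.19), with replicate 1 1.24 times higher and an adjusted p of 1.31e-05. For Atp1b3 it was 0.11 (-0.19 to 0.41), with an adjusted p of 0.733. The interval of Atp1b3 lay above that of Atp1b1 and, by a narrow margin, above that of Atp1b2, with a lower end of -0.185 against an upper end of -0.192. With the spread between these libraries counted as a common dispersion, edgeR's exact test called neither Atp1b1 nor Atp1b2 (adjusted p = 1 for both). That dispersion was estimated from the same 2 libraries and so holds the difference being tested, so the loss of the calls decides nothing.

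High density moved with the difference between the replicates. In the densest decile of genes, which holds Atp1b1 and Atp1b2, the median log2 ratio was -0.26 and 51.5% of genes were called lower in replicate 2. In the next decile, which holds Atp1b3, the median was -0.10 and 26.4% were called lower, and in the least dense decile the median was 0.21. After subtraction of the median of its decile, an alternative chosen after the data were seen, Atp1b1 had a log2 ratio of -0.30 and, in the exact binomial test, an adjusted p of 4.92e-10. Atp1b2 then had -0.06 and an adjusted p of 0.581, so its call was lost. Atp1b3 had 0.21 and an adjusted p of 0.376.

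**Figure D3:**
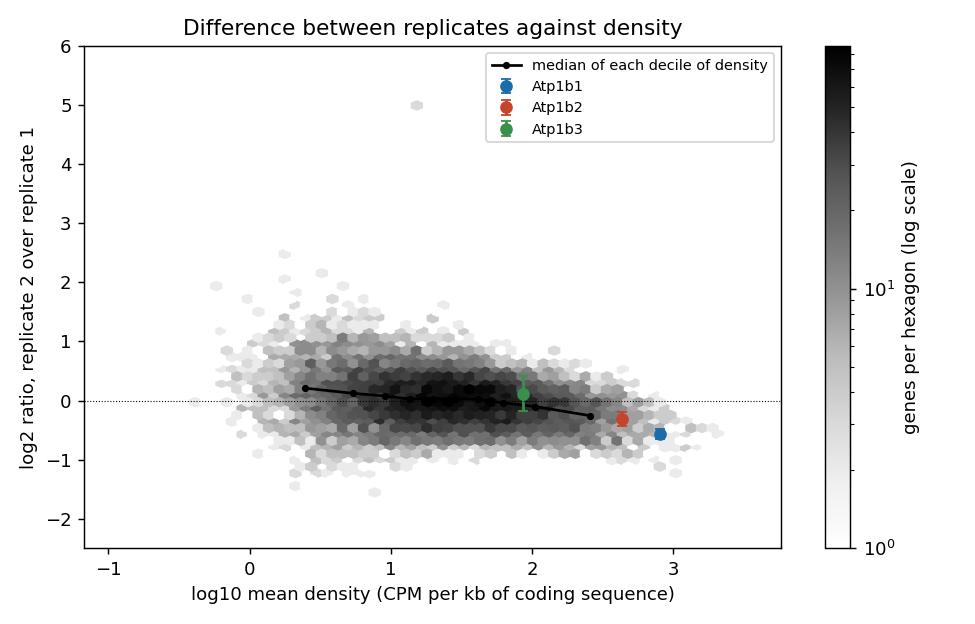
Log2 ratio of replicate 2 over replicate 1 (TMM scaling) against the log10 of mean footprint density for 13317 genes, drawn as hexagons shaded by the number of genes on a log scale. The black line joins the medians of the deciles of density, from 0.21 in the least dense to -0.26 in the densest; coloured points are the beta subunit genes with 95% counting intervals. Atp1b1 at -0.56 lies below the line, Atp1b2 at -0.32 close to it and Atp1b3 at 0.11 above it.

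Cell type markers also moved between the libraries. The 7 neuronal markers summed to 5456 CPM in replicate 1 and 4315 in replicate 2, and 5 of 7 were called, all lower in replicate 2. The 7 astrocyte markers summed to 2131 and 2094 CPM, with 2 of 7 called lower and none higher. Other sets went the other way. The 7 oligodendrocyte markers summed to 897 and 1120 CPM, with 3 called higher and 2 lower. The 4 microglia markers summed to 169 and 194 CPM, with 1 called higher. Red cell markers summed to 2126 and 1467 CPM, with 3 of 4 called lower. Endothelial markers summed to 245 and 193 CPM, with 1 of 4 called lower. The 5 choroid plexus markers, of a tissue rich in the pump, summed to 647 and 356 CPM, and Ttr was the 1 gene called. Without Ttr the other 4 summed to 64.8 and 78.9 CPM, so the sum fell only with Ttr included. Of the 5 markers, 3 were lower in CPM in replicate 2. Over all tested genes 17.4% were called and 11.5% were called lower, and in the densest decile 51.5% were called lower. The part of these shifts in the beta subunit differences was not tested.

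The genes closest to each beta subunit in density over the 2 libraries were found by the distance of log2 densities. Nearest to Atp1b1 were Nsg2, a neuronal endosomal protein, with densities of 910 and 677, Pfn1, the actin monomer-binding profilin, with 923 and 667, and Uqcr11, a subunit of respiratory complex III, with 937 and 650. Near to Atp1b2 were the ribosomal protein gene Rps15, with 475 and 407, and Ndufa5, a subunit of respiratory complex I, with 446 and 407. Nearest to Atp1b3 were Tax1bp3, with 80.0 and 94.3, Eif3m, an initiation factor subunit, with 80.5 and 93.1, and Map9, a microtubule-associated protein, with 79.8 and 94.9. The distances ran from 0.0184 to 0.0847 on the log2 scale over 2 libraries of 1 condition, so they show a like level and no more.

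Beta subunits of related pumps were at or near the limit of detection. Atp1b4, a relative of the family found in muscle that does not serve the sodium pump in mammals, had 0 footprints in both libraries, as did Atp4b, the beta subunit of the gastric proton pump. With a floor set at 3 counts per library, a count of 0 was taken as at most 1.61 CPM in the first library and 0.570 CPM in the second. Against this floor, Atp1b1 density was at least 621-fold higher than that of Atp1b4 in replicate 1 and at least 1295-fold in replicate 2. Even Atp1b3 density was at least 52.9-fold and 175-fold higher. The catalytic subunit of the gastric pump, Atp4a, had 6 and 16 footprints, and Atp12a, that of the colonic pump, had 0 and 4.

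Among the FXYD proteins, small membrane proteins that bind the pump and tune its kinetics, Fxyd6 had the highest density. It stood at 804 in replicate 1 and 470 in replicate 2, which is 637 ± 236 (SD, n = 2), above Atp1b2 in both animals and below Atp1b1 in both. Fxyd7, the brain regulator known to bind the pump, stood at 445 and 281, below Atp1b2 and above Atp1b3 with all transcripts counted. Fxyd6 and Fxyd7 were the 2 of 4 tested members called, both lower in replicate 2, with log2 ratios of -0.90 and -0.79. Their adjusted p was 7.92e-21 and 5.95e-08 in the exact binomial test. Over all tested genes 17.4% were called and 11.5% were called lower. In the densest decile, which holds Fxyd6 and Fxyd7, 51.5% were called lower. Fxyd3 and Fxyd4 were at 0 in both libraries.

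The NKAIN proteins, membrane proteins that interact with beta1, were all tested. The exact binomial test called 0 of 4, beside 17.4% of all tested genes. Nkain3 had the highest mean density, with 66.7 and 66.5, although Nkain2 was higher in replicate 1 (69.2) and Nkain4 in replicate 2 (71.5). The 4 genes lay between 45.6 and 66.6 in mean density, below every beta subunit. Tmem30a, the beta-like subunit of the phospholipid flippases, was the 1 tested gene of 3 in its family, with a density of 192 and 242, between Atp1b2 and Atp1b3.

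The calcium pumps are P-type ATPases that work without a beta subunit. Atp2a2, the pump of the endoplasmic reticulum, was the densest of the 9, at 270 and 259. With all transcripts counted, it lay below Atp1b2 in both animals. With protein-coding transcripts alone the density of Atp1b2 was 242, and these pumps were not compared with it in that setting. Of 7 tested, 3 were called by the exact binomial test, beside 17.4% of all tested genes. Atp2a2 and the plasma membrane pump Atp2b1 were lower in replicate 2 at log2 ratios of -0.19 and -0.31, and the Golgi pump Atp2c1 was higher at 0.34.

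Of the 12 transporters that run on the sodium gradient, the glutamate transporter Slc1a3 had the highest density, at 336 in both animals. With all transcripts counted, Atp1b1 and Atp1b2 were denser than every one of the 12, and 7 of the 12 were denser than Atp1b3. With protein-coding transcripts alone the density of Atp1b2 was 242, and the 12 were not compared with it in that setting. The exact binomial test called 3 of 12, all lower in replicate 2, beside 17.4% of all tested genes called and 11.5% called lower. Among these 3, the GABA transporter Slc6a11 had a log2 ratio of -0.64 and the sodium-calcium exchanger Slc8a2 one of -0.54. Slc1a2 and Slc1a3 also stand among the astrocyte markers.

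Over these 39 genes, which exclude the beta subunits themselves, 29 were tested and 8 were called, 1 higher and 7 lower in replicate 2, beside 17.4% of all tested genes. Their median log2 ratio was -0.01, against 0.01 over all tested genes. With library totals in place of TMM, 14 were called, 8 higher and 6 lower, beside 19.0% of all tested genes, so the split by direction rests on the scaling. In density with all transcripts counted, 0 of the 39 lay above Atp1b1, 1 above Atp1b2 and 13 above Atp1b3. The 39 were not compared with the lower density of Atp1b2 on protein-coding transcripts alone.

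**Figure D4:**
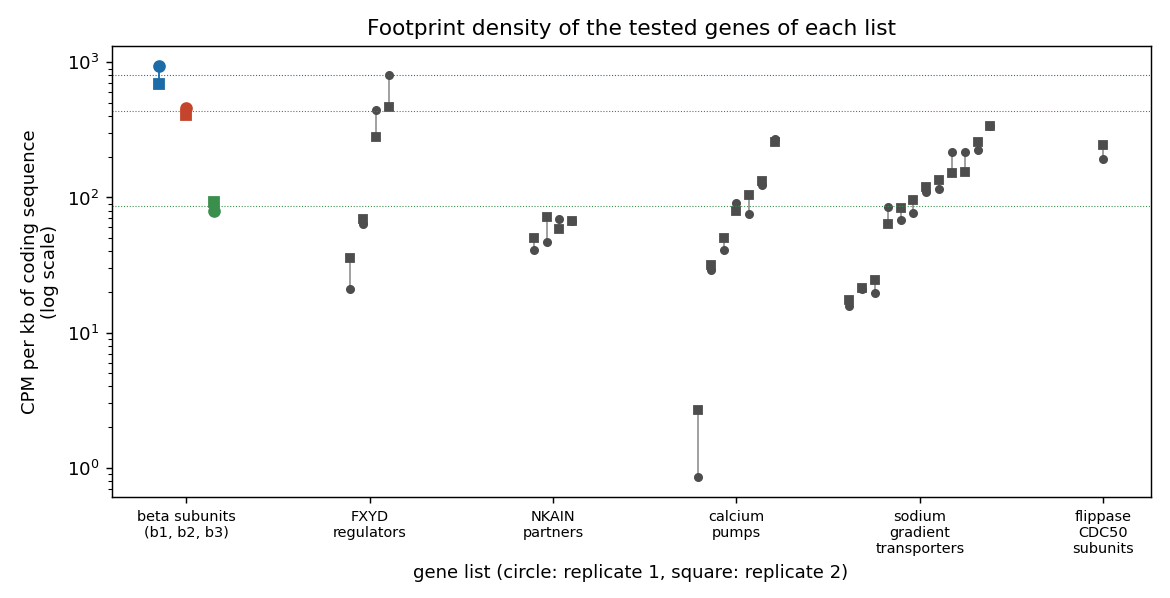
Footprint density (log scale, CPM per kilobase of coding sequence) of the beta subunit genes and of the tested genes in 5 lists, with circles for replicate 1 and squares for replicate 2 joined by a line for each gene. Dotted lines mark the mean densities of Atp1b1 (811), Atp1b2 (434) and Atp1b3 (86.3). With all transcripts counted, Fxyd6, at 637 in mean density, is the 1 gene of these lists above Atp1b2.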

How the data were processed

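Ribosome footprints were measured in 2 brains of 1 group. Per the submitters' processing notes, Trimmomatic 0.36, Bowtie2 2.2.6, SAMtools and build GRCm38.p4 were used. The deposited values are raw counts per transcript, and the deposited table gives annotated lengths beside them; the assignment of shared fragments, strand and duplicates are not given in the sources used here. Chromosome positions come from a RefSeq table of GRCm38.p6, a patch release that keeps the chromosome coordinates of GRCm38.p4.

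Counts were summed per gene. TMM factors (edgeR 4.0.16) were 0.957 and 1.04. Log2 ratios used a prior of 0.5 CPM. Exact binomial and Fisher's exact tests (scipy 1.17.1) were adjusted by Benjamini-Hochberg over all genes whose mean count reached 10 (for Fisher's test, with at least 2 transcripts counted). A quasi-likelihood test needs a contrast, which 1 group does not give. Intervals, floors and p-values take in counting error alone and no spread between animals. Fragments copied by PCR are not separate molecules, so where copies are present the counting error is larger than given. On 16427 genes simulated with counting noise alone, the binomial test called 196 of 200 genes changed 2-fold and 16 unchanged genes; spread between animals was not simulated.

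Members and gene lists were chosen with earlier results of these data known. Named were the members and their transcripts, up to 3 of the nearest genes in density, and each list's densest and called genes. Alternatives were other scalings (DESeq2 1.42.0 size factors among them), filters, transcript sets and lengths. Some genes under these rules are not reported here. RNA abundance was not analysed here, so levels are not translational efficiencies.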

Additional observations from a re-analysis of the deposited data

How the results depend on the processing

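The order Atp1b1, Atp1b2, Atp1b3 in density held under every length and transcript set tried and in each replicate alone. The longest coding sequence gave the same density as the leading coding transcript for each gene, so it adds no check. With transcript length in place of coding length, densities were 288 for Atp1b1, 133 for Atp1b2 and 36.2 for Atp1b3, and the ratios were 2.14 for Atp1b1 over Atp1b2 and 3.72 for Atp1b2 over Atp1b3. With protein-coding transcripts alone (scaled to their own total), Atp1b2 had 212 CPM and a density of 242, and the same ratios were 3.22 and 2.75. With the highest transcript alone, Atp1b2 had 270.4 CPM and a density of 309.8, Atp1b3 had 109 CPM and a density of 131, and the ratios were 2.81 and 2.39. Leaving out a replicate only returns the values of the other, which are given above. These were 631 to 853 CPM for Atp1b1, 354 to 404 for Atp1b2 and 66.4 to 78.1 for Atp1b3. The densities were 689 to 932, 406 to 463 and 79.4 to 93.3. The ratios were 1.70 to 2.01 for Atp1b1 over Atp1b2, 7.39 to 11.7 for Atp1b1 over Atp1b3 and 4.35 to 5.83 for Atp1b2 over Atp1b3.

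Other filters and edgeR's exact test change only the genes tested or the p-value, so they keep the TMM-scaled log2 ratio. Atp1b1 and Atp1b2 were lower in replicate 2 under all 8 alternatives, these included, at log2 ratios of -0.59 to -0.30 and -0.35 to -0.060. With edgeR's exact test and the common dispersion, both lost their call at -0.56 and -0.32 (adjusted p of 1 for each; unadjusted 0.104 and 0.365), and its dispersion was estimated from the same 2 libraries. Atp1b2 also lost its call at -0.060 with the median of its density decile subtracted (adjusted p = 0.581; 6.57e-06 to 1 over its alternatives). Atp1b3, never called, turned to -0.035 with protein-coding transcripts alone. The number of genes called fell from 2861 to 1444 with the highest transcript alone and to 11 with edgeR's exact test, where 719 had an unadjusted p under 0.05; with library totals the share of calls higher in replicate 2 was 60.7% in place of 34.2%. Of the 39 pathway genes, 14 were called with library totals and 0 with edgeR's exact test, against 8. The share of the leading transcript kept its direction, uncalled, under its alternatives; leaving out a replicate leaves no difference to test there. No paired analysis was possible because there is 1 group. The causes of these changes were not tested. Depth limits Atp1b3 most, with 124 footprints in replicate 1.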
